A study of Drosophila melanogaster with 8 samples.

Results

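The genes of the mitochondrial genome of Drosophila melanogaster were examined in the sperm of males on 2 diets and in the embryos such males sired. They were taken as the rows of both expression tables whose gene name begins with mt:, which gave 37 of 15146 genes. By name, 13 of these encode proteins, 2 encode ribosomal RNAs and 22 encode transfer RNAs. All animals were of the w1118 strain, a common white-eyed laboratory stock. The groups were sperm of adult males fed 300 g/L sugar (high sugar), sperm of adult males fed 30 g/L sugar (medium sugar), whole stage 17 F1 embryos of high sugar males and whole stage 17 F1 embryos of medium sugar males, where stage 17 is the last stage before hatching. Each group held 2 libraries, 8 in all, and the labels do not state whether both came from separate collections, so the authors' p-values may measure a technical spread. The comparison between diets asks whether RNA of the father's sperm, and of his offspring, differed with the sugar content of his food.

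The animal mitochondrial genome is a small circle that encodes core subunits of the respiratory chain and of ATP synthase, together with the RNAs needed to translate them. The remaining subunits, the mitochondrial ribosomal proteins and the transcription machinery come from nuclear genes. In flies both strands are transcribed into long precursors, which are cut largely at the transfer RNAs that lie between the other genes. Mitochondrial DNA passes from mother to offspring, and in Drosophila it is removed from sperm as they mature, while mitochondria fuse into the large nebenkern derivatives that run along the sperm tail.

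Expression is given as FPKM, the number of fragments per kilobase of a gene's transcripts after scaling for library size, and each gene has 1 deposited value per group. The spread between libraries and their depth are therefore unknown. A gene was called changed where the authors tested it and its adjusted p in their deposited table was under 0.05. Fixed lists of tissue markers fitted the labels in part. In sperm all 22 spermatid markers reached a mean of 1 FPKM, with summed levels of 2025 FPKM in the high sugar group and 891 FPKM in the medium sugar group. Muscle markers were also present in sperm, with 15 of 18 at 1 FPKM or more and sums of 4267 and 4505 FPKM in the same groups, and accessory gland and ejaculatory duct markers summed to 1315 and 679 FPKM. In sperm 6 of 8 larval cuticle markers (Lcp1, Lcp2, Lcp3, Lcp4, TwdlD and TwdlB) were listed at 0 in both groups. In embryos 6 of 8 cuticle markers reached 1 FPKM, and 4 of 22 spermatid markers did. In bulk samples a lower share of cells of a type and less RNA per cell cannot be told apart, and the part of muscle or gland RNA in the mitochondrial values of sperm was not tested.

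Mitochondrial RNA was among the most abundant in every group. The 37 genes together held 18.9% of the summed FPKM in high sugar sperm and 15.6% in medium sugar sperm, and 18.3% in embryos of high sugar males and 18.9% in embryos of medium sugar males. These are shares of summed values per length, not of reads. In high and medium sugar sperm the tRNA genes held 8.27% and 4.05%, and the rRNA genes 5.28% and 5.69%. Only the tRNA share was higher at high sugar in sperm. The protein genes held 5.35% and 5.85% in high and medium sugar sperm and 3.55% in both embryo groups. With rRNA, tRNA and small RNA genes left out of the sum they held 6.92% and 7.33% in high and medium sugar sperm, and 7.67% and 7.02% in embryos of high and medium sugar males, so the order of the tissues at high sugar turned with the sum used. In sperm the sum also held CG18628, a single nuclear gene with 29.4% and 31.1% of it in high and medium sugar males.

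CoI and CoIII, core subunits of cytochrome c oxidase (complex IV), had the highest levels of the protein genes in every group. CoI, at 1474 to 3009 of the mitochondrial genome in the BDGP5 build, came first of the 13, with 15650 FPKM in high sugar sperm, 16119 FPKM in medium sugar sperm, 12857 FPKM in embryos of high sugar males and 11569 FPKM in embryos of medium sugar males. It ranked 9 and 7 among all genes in high and medium sugar sperm, and 9 and 10 in the corresponding embryos. CoIII stood second. CoI, CoII and CoIII accounted for 65.0% and 64.8% of the FPKM summed over mitochondrial protein genes in high and medium sugar sperm, and 67.8% and 68.1% in embryos of high and medium sugar males. Cyt-b (10498 to 11634), the single mitochondrial subunit of complex III, and CoII (3083 to 3767) came next, Cyt-b ahead in sperm and CoII ahead in embryos, and ATPase6, a membrane subunit of ATP synthase, was the fifth in every group. All 7 complex I genes lay below these, and ND6 (9970 to 10494) was the lowest gene above 0 in both sperm groups. Per the newer BDGP6 annotation, 9 of the 13 genes lie on one strand, here called the major one, and ND1, ND4, ND4L and ND5 lie with both rRNA genes on the other. The major-strand protein genes had median levels of 3213 and 3313 FPKM in high and medium sugar sperm, against 1262 and 1340.4 FPKM for the minor-strand protein genes. In embryos of high and medium sugar males the major-strand medians were 2862 and 2753 FPKM, against 1259 and 1133 FPKM for the minor strand. All 4 minor-strand protein genes belong to complex I, however. Within complex I the order was reversed in both sperm groups. The major-strand ND2, ND3 and ND6 had 765, 782 and 178 FPKM in high sugar sperm, and 653, 549 and 229 FPKM in medium sugar sperm. The minor-strand ND1, ND4, ND4L and ND5 had 1658, 1029, 1495 and 933 FPKM in high sugar sperm. In medium sugar sperm they had 1382, 1298, 2259.6 and 1034 FPKM. In embryos ND1, ND4 and ND5 also stood above the major-strand complex I genes, whereas ND4L stood below ND2 and ND3. The part of strand was not tested.

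**Figure D1:**
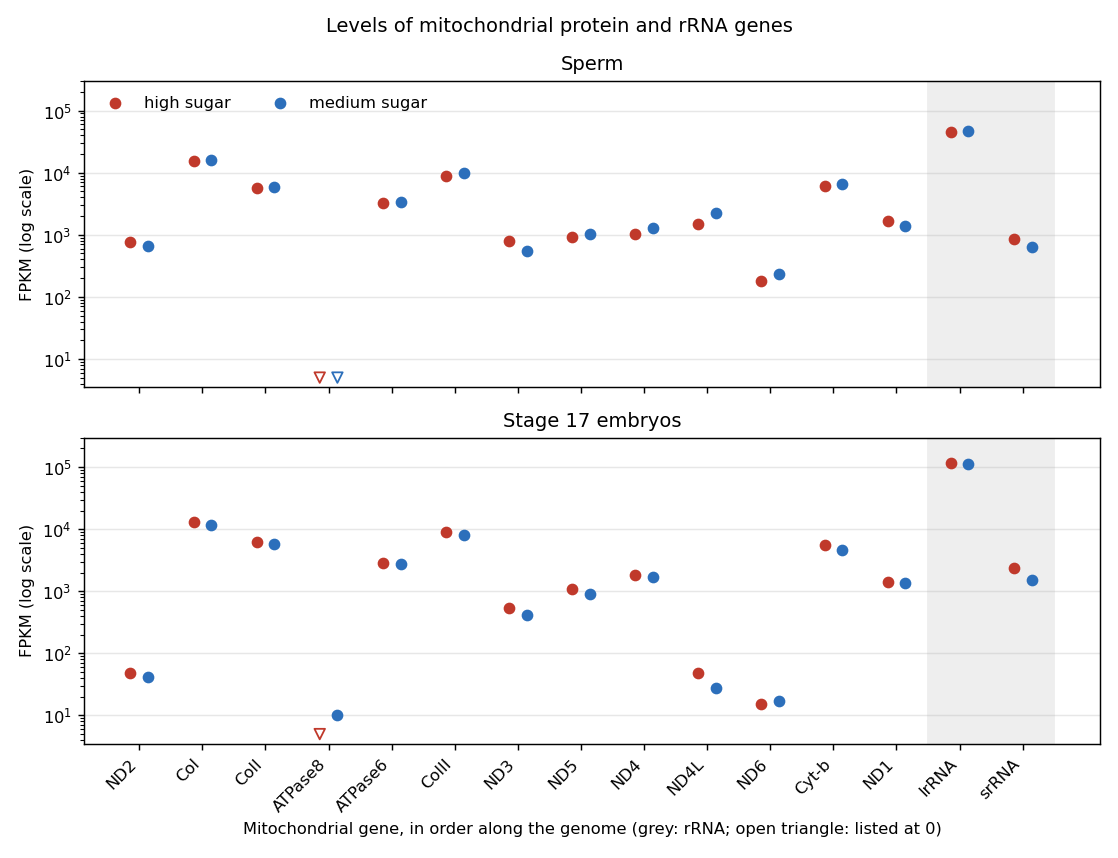
FPKM (log scale) of the 13 protein and 2 rRNA genes of the mitochondrial genome, in their order along it, in sperm (top) and stage 17 embryos (bottom), with 1 deposited value per group. CoI is the highest protein gene in all 4 groups, ND2, ND4L and ND6 sit below 50 FPKM in embryos and above 170 FPKM in sperm, and ATPase8 is listed at 0 in 3 groups.

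In sperm no mitochondrial gene was called between the diets. The authors tested 16 of the 37, including 12 protein genes, both rRNAs and 2 tRNAs, and 0 were called in either direction in the authors' deposited table, where 0.341% of all 6453 tested sperm genes were called (0.325% higher and 0.0155% lower in high sugar). None of the 16 had an unadjusted p under 0.05 in that table, against 3.95% of all tested sperm genes. In the authors' deposited table the smallest adjusted p among the 16 was 0.996. As deposited, 9 of the 12 protein genes listed above 0 had lower values in high sugar sperm and 3 had higher values, but the split was 6 and 6 once ratios were centred on the median of nuclear genes at 10 FPKM or more, which was -0.08 on the log2 scale. The ratios of high over medium sugar ran from 0.662 to 1.42, with a median log2 ratio of -0.10, which came to -0.02 when centred. The median over the 9251 sperm genes whose mean reached 1 FPKM was -0.03, and 47.6% had a ratio above 1. CoI, CoII and ATPase6, which changed side with the centring, had log2 ratios of -0.043, -0.074 and -0.044. These lay below the median of -0.03, so the split depended on the centre used. Log2 ratios are on the scale of log2(FPKM + 0.1).

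The abundant complex IV, III and V genes differed little between the sperm groups. CoI had a ratio of 0.971, CoII had 5668 FPKM in high sugar and 5965 FPKM in medium sugar sperm, and CoIII had 8696 and 9791 FPKM in the same groups. Cyt-b had 6073 FPKM in high sugar and 6618 FPKM in medium sugar sperm, and ATPase6 had 3213 and 3313 FPKM. These 5 genes all had lower deposited values in high sugar sperm, by ratios between 0.888 and 0.971, of which those of CoI, CoII and ATPase6 came to lie above 1 with the same centring, and their unadjusted p in the authors' deposited table was 0.594 for CoIII and larger for the others.

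The complex I genes, whose products form the proton-pumping membrane arm of NADH dehydrogenase, varied more and in both directions. ND3 (5608 to 5961) had 782 FPKM in high sugar and 549 FPKM in medium sugar sperm, a ratio of 1.42 (unadjusted p = 0.162 in the authors' deposited table), the smallest p among the protein genes of sperm. ND1 (11720 to 12658) had 1658 and 1382 FPKM and ND2 had 765 and 653 FPKM in high and medium sugar sperm. These 3 were the protein genes with higher values in high sugar sperm. ND4 had 1029 FPKM in high sugar and 1298 FPKM in medium sugar sperm, ND4L 1495 and 2259.6 FPKM, ND5 (6402 to 8124) 933 and 1034 FPKM, and ND6 178 and 229 FPKM. The ratio of ND4L, 0.662, was the lowest of the set, and its unadjusted p in the authors' deposited table was 0.333. ATPase8, the small accessory subunit of ATP synthase, was listed at 0 in both sperm groups and was not tested. Beside these values the summed spermatid markers had 2.27 times the level in high sugar sperm as in medium sugar sperm, while the summed muscle markers had 0.947 times the level, and the part of either in the mitochondrial values was not tested.

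In embryos no mitochondrial gene was called either, and nearly all protein genes had higher values in the high sugar group. The authors tested 18 of the 37 genes and 0 were called in the authors' deposited table, where 0.807% of all 10163 tested embryo genes were called (0.708% higher and 0.0984% lower in embryos of high sugar males). A single member, ATPase8, had an unadjusted p under 0.05 in that table, against 3.34% of all tested embryo genes. Of the 12 protein genes above 0 in both groups, 11 were higher and 1 was lower in embryos of high sugar males, with ratios from 0.898 to 1.74, and the split stayed 11 and 1 when ratios were centred as in sperm. The median log2 ratio over all 13 protein genes was 0.15, against -0.04 over the 9940 embryo genes whose mean reached 1 FPKM, of which 43.1% had a ratio above 1. The mitochondrial genes are cut from shared precursors, so their ratios are not independent of one another and their number is not a number of replicates.

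Among the abundant genes of embryos, CoI had a ratio of 1.11, CoII had 6272 FPKM in embryos of high sugar males and 5715 FPKM in embryos of medium sugar males, and CoIII had 9028 and 7999 FPKM in the same groups. Cyt-b had 5537 FPKM in embryos of high sugar males and 4671 FPKM in embryos of medium sugar males, and ATPase6 had 2862 and 2753 FPKM. These 5 genes were all higher in embryos of high sugar males, by ratios between 1.04 and 1.19, and the smallest of their unadjusted p-values in the authors' deposited table was 0.618, that of Cyt-b. ATPase8 was listed at 0 in embryos of high sugar males and had 10.2 FPKM in embryos of medium sugar males (unadjusted p = 0.0028, adjusted p = 0.237 in the authors' deposited table). Its gene is 162 bases long in the BDGP6 annotation and shares 1 locus (3907 to 5524) with ATPase6 and CoIII in the tables, so the split of fragments among these 3 genes is uncertain.

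Of the complex I genes in embryos, ND3 had 542 FPKM in the high sugar and 407 FPKM in the medium sugar group, a ratio of 1.33. ND5 had 1106 and 896 FPKM, ND4 1821 and 1675 FPKM, and ND1 1412 and 1371 FPKM in embryos of high and medium sugar males. ND2 had 48.2 and 42.1 FPKM, ND4L 47.6 and 27.4 FPKM, and ND6 15.1 and 16.8 FPKM. ND6 was the exception with a lower value in embryos of high sugar males. ND4L had the largest ratio of the protein genes, 1.74, but its unadjusted p was 0.837 in the authors' deposited table, whereas that of ND3 was 0.223 at a smaller ratio. ND4L lies in 1 locus with ND4 (8206 to 9834), with which it shares a mature transcript in flies. The split of fragments between these genes is therefore uncertain. In embryos of high and medium sugar males muscle markers summed to 8221 and 7298 FPKM and cuticle markers to 1349 and 462 FPKM. Their part in the mitochondrial values was not tested.

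Of 14 protein and rRNA genes above 0 in all 4 groups, 9 were lower in high sugar sperm and higher in embryos of high sugar males, each relative to its medium sugar group, and 5 of these 9 were still so after the centring. The 9 were CoI, CoII, CoIII, ATPase6, Cyt-b, ND4, ND4L, ND5 and the large rRNA, of which CoI, CoII, ATPase6 and the large rRNA turned to the higher side in sperm with the centring. Their log2 ratios of -0.0426, -0.0735, -0.0439 and -0.0794 lay above the centre of -0.0809. They lay below the median of -0.0293 over all sperm genes at 1 FPKM or more, so their turn depended on the centre used. ND1, ND2, ND3 and the small rRNA were higher with high sugar in both tissues, and ND6 was lower in both. The difference between the tissues in the response to diet was not tested, since each group has 1 value.

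**Figure D2:**
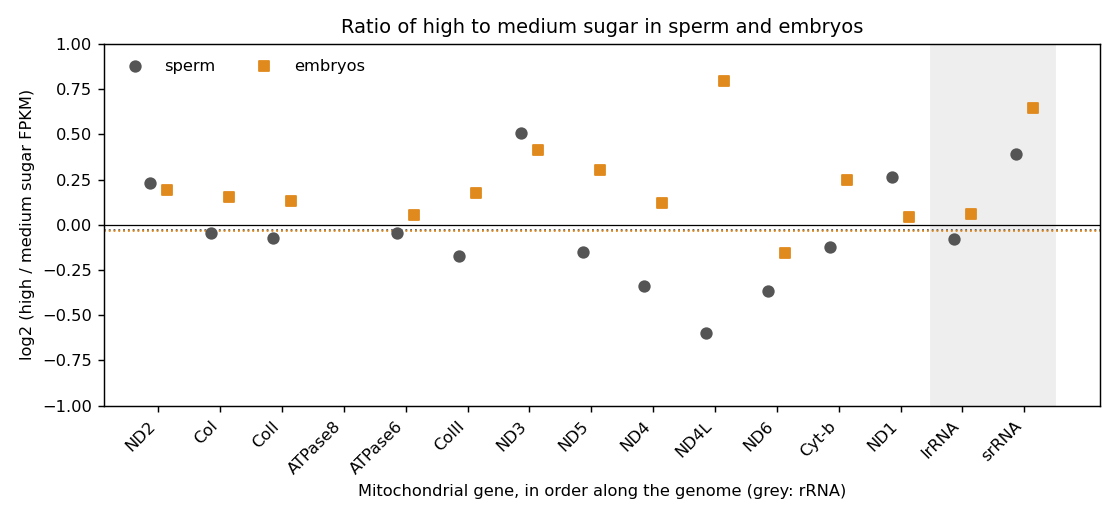
Log2 ratio of high over medium sugar FPKM for each mitochondrial protein and rRNA gene in sperm (circles) and embryos (squares), with dotted lines at the median of all genes at 1 FPKM or more in each tissue. Sperm ratios of the protein genes run from 0.662 to 1.42 and embryo ratios from 0.898 to 1.74, none of them called. ATPase8 has no ratio because it is listed at 0. Sperm ratios of CoI, CoII, ATPase6 and lrRNA change side when centred on nuclear genes at 10 FPKM or more, but lie below the dotted line of sperm.

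The largest ratios among the protein genes were between tissues, in 3 complex I genes, ND2, ND4L and ND6. The tables of sperm and embryos were produced separately, and no test was made across them, so levels are given side by side. ND2 had 765 FPKM in high sugar sperm, against 48.2 FPKM in embryos of high sugar males, and 653 FPKM in medium sugar sperm, against 42.1 FPKM in embryos of medium sugar males. ND6 had 178 against 15.1 FPKM at high sugar and 229 against 16.8 FPKM at medium sugar, sperm before embryos. ND4L had 1495 FPKM in sperm against 47.6 FPKM in embryos at high sugar, and 2259.6 against 27.4 FPKM at medium sugar. The ratios of sperm over embryos were thus 15.9 and 15.5 for ND2, 11.8 and 13.7 for ND6, and 31.4 and 82.4 for ND4L, at high and medium sugar. Both pairs of groups showed the contrast in the same direction. The split of fragments between ND4L and ND4, which share a locus, is uncertain, and so are the ratios of ND4L.

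The other 9 protein genes above 0 had ratios of sperm over embryos between 0.565 (ND4, high sugar) and 1.44 (ND3, high sugar), and the median over all 12 was 1.15 at high sugar and 1.29 at medium sugar. Thus 3 of 12 exceeded a ratio of 5 at either diet. Of nuclear genes above 0 in both tissues and with a mean of at least 1 FPKM, 12.4% did so at high sugar and 11% at medium sugar. ND4, which neighbours ND4L in the same locus, had 1029 FPKM in high sugar sperm against 1821 FPKM in embryos of high sugar males, and 1298 against 1675 FPKM at medium sugar. The FPKM of ND4 was 0.688 and 0.575 times that of ND4L in high and medium sugar sperm, and 38.2 and 61.1 times that of ND4L in the corresponding embryos. These ratios depend on the uncertain split of fragments within that locus. In the BDGP6 annotation ND4L is 291 bases long, ND6 525 and ND2 1024. ND3, of 354 bases, had ratios of sperm over embryos of 1.44 and 1.35 at high and medium sugar. The part of gene length in these ratios was not tested. ND2 shares its locus (240 to 1383) with the tRNA genes for tryptophan and cysteine, so the split of fragments among them is uncertain. ND6 has a locus of its own. The sources used here do not say whether the authors' counting used the strand of the fragments.

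Set against CoI of the same group, which removes the scaling between tables, the same 3 genes stood higher in sperm, by smaller ratios. CoI itself had ratios of sperm over embryos of 1.22 and 1.39 at high and medium sugar. ND2 stood at 4.89% and 4.05% of CoI in high and medium sugar sperm, and at 0.375% and 0.364% of it in embryos of high and medium sugar males. ND6 stood at 1.14% and 1.42% of CoI in sperm and at 0.117% and 0.145% in embryos, and ND4L at 9.55% and 14.02% in sperm and 0.370% and 0.237% in embryos, each at high and medium sugar. Sperm over embryos, these percentages had ratios of 13.1 and 11.1 for ND2, 9.72 and 9.82 for ND6, and 25.8 and 59.1 for ND4L at high and medium sugar. By comparison Cyt-b stood at 38.8% and 41.1% of CoI in high and medium sugar sperm and at 43.1% and 40.4% in the embryos, so its place beside CoI was similar in both tissues. The ratio of the highest to the lowest protein gene above 0 was 87.8 and 70.3 in high and medium sugar sperm, against 853 and 1129 in the embryos, where the lowest was ND6 at high sugar and ATPase8 at medium sugar.

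**Figure D3:**
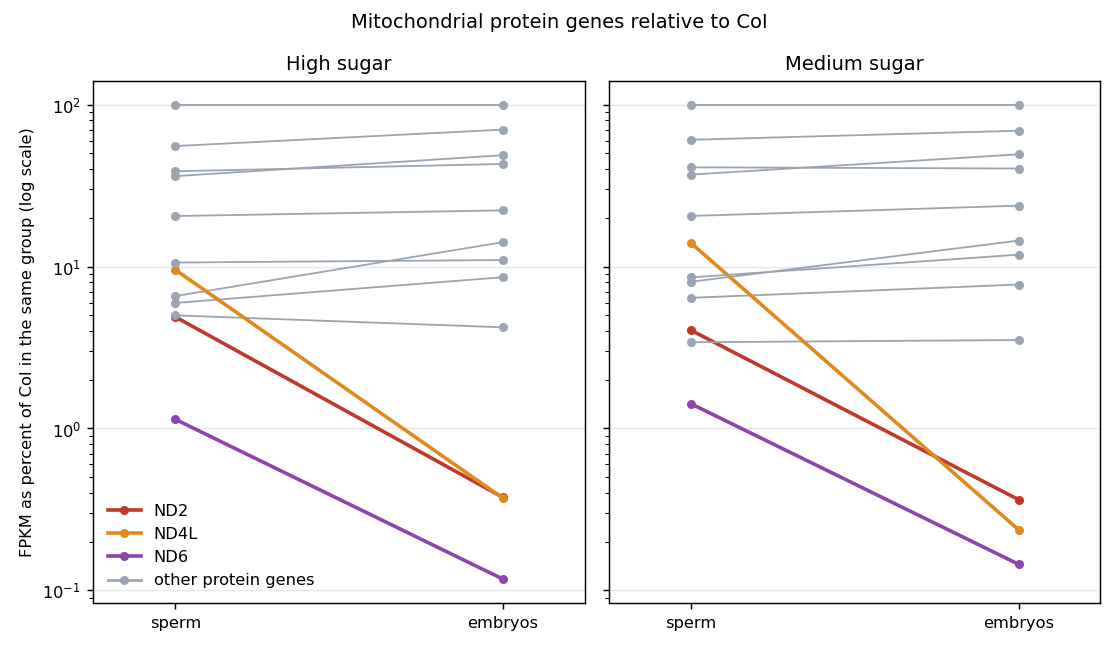
FPKM of each mitochondrial protein gene as a percent of CoI in the same group (log scale), sperm joined to embryos, at high (left) and medium (right) sugar, leaving out ATPase8. ND2, ND4L and ND6 stand higher in sperm than in embryos, for instance ND2 with 4.89% in sperm against 0.375% in embryos at high sugar, while the lines of the other genes stay closer to level.

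The ribosomal RNAs of the mitochondrial ribosome differed widely in level. Per the labels, ribosomal RNA was depleted before library preparation, so these values measure what remained. The large rRNA (lrRNA, in a locus at 12734 to 14130 shared with the valine tRNA) had 44713 FPKM in high sugar and 47242 FPKM in medium sugar sperm, and 115538 FPKM and 110671 FPKM in embryos of high and medium sugar males. The small rRNA (srRNA, 14131 to 14916) had 842 and 641 FPKM in high and medium sugar sperm, and 2387 and 1525 FPKM in embryos of high and medium sugar males. The large rRNA ranked 3 and 2 among all sperm genes and 2 and 1 among all embryo genes, at high and medium sugar. Both rRNAs had lower values in sperm than in embryos, with sperm over embryo ratios of 0.387 and 0.427 for lrRNA and 0.353 and 0.420 for srRNA at high and medium sugar.

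Between diets the large rRNA differed little, with ratios of high over medium sugar of 0.946 in sperm and 1.04 in embryos. The sperm ratio turned to the higher side with the centring, by a log2 ratio of -0.0794 against a centre of -0.0809. The small rRNA was higher with high sugar in both tissues, by 1.31 in sperm and 1.56 in embryos, and was not called in either, with unadjusted p-values of 0.234 in sperm and 0.074 in embryos in the authors' deposited table. Accordingly the large rRNA stood at 53.1 times the small rRNA in high sugar sperm, against 73.7 times in medium sugar sperm, and at 48.4 times in embryos of high sugar males, against 72.6 times in embryos of medium sugar males. This ratio was lower with high sugar in both tissues, and it was not tested.

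Most mitochondrial tRNA genes, which are 62 to 72 bases long in the BDGP6 annotation, were listed at 0. Of the 22, 20 were listed at 0 in both sperm groups and 18 in both embryo groups. Of 297 nuclear tRNA genes, 296 were listed at 0 in both sperm groups and 292 in both embryo groups, so most genes of this class were listed at 0. The mitochondrial tRNAs listed above 0 had very high values. The cysteine tRNA (tRNA:C) had 49887 FPKM in high sugar and 34033 FPKM in medium sugar sperm. It was listed at 0 in embryos of high sugar males against 8648 FPKM in embryos of medium sugar males. It lies in the locus of ND2 (240 to 1383), so the split of fragments between them is uncertain. The tyrosine tRNA (tRNA:Y, 1403 to 1468) had 21479 FPKM in high sugar sperm and was listed at 0 in medium sugar sperm, and it had 7307 and 2942 FPKM in embryos of high and medium sugar males. The arginine tRNA (tRNA:R, 6055 to 6118) was listed at 0 in both sperm groups and had 45940 FPKM in embryos of high sugar males and 36631 FPKM in embryos of medium sugar males, and the lysine tRNA (tRNA:K, 3768 to 3838), which was not tested, was likewise listed at 0 in sperm with 1369 and 744 FPKM in the embryos. Each of these 4 was thus listed at 0 in at least 1 group and was abundant in another. The smallest unadjusted p among the tested tRNAs in the authors' deposited table was 0.118, that of tRNA:Y in sperm, so these differences did not pass the test. These few genes set the tRNA share of summed FPKM, which was 8.27% in high sugar and 4.05% in medium sugar sperm.

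The nuclear partners of these genes were listed by complex, with 74 subunit genes of complexes I to V and cytochrome c. None was called in either tissue in the authors' deposited table, out of 73 tested in sperm and 71 in embryos, where 0.341% and 0.807% of all tested genes were called. In embryos 60 of 71 nuclear subunits at 1 FPKM or more were higher in the high sugar group (65 when centred). Of all 9940 embryo genes at that level 43.1% had a ratio above 1, with a median log2 ratio of -0.04. The median log2 ratio of the nuclear subunits was 0.07, against 0.15 for the mitochondrial protein genes. ND75, the largest nuclear subunit of complex I, was the single one with an unadjusted p under 0.05, at 22.4 FPKM in embryos of high sugar males and 15.5 FPKM in embryos of medium sugar males (unadjusted p = 0.042, adjusted p = 0.999 in the authors' deposited table). In sperm 37 of 73 were higher in high sugar (40 when centred), and their median log2 ratio was 0.02, against -0.10 for the mitochondrial protein genes. Over members at 1 FPKM or more, nuclear complex I genes had a median of 0.02 in sperm (34 genes) and 0.07 in embryos (33 genes). Those of complex IV had medians of 0.12 (11 genes) and 0.07 (10 genes), and those of complex V -0.21 and 0.06 (13 genes each). In embryos the most abundant of them were the ATP synthase subunits CG1746 (ATPsynC), with 1304 FPKM in embryos of high sugar males and 1249 FPKM in embryos of medium sugar males, and ATPsyn-beta, with 1269.7 and 1199 FPKM in the same groups.

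Between tissues the nuclear subunits had lower values in sperm and most mitochondrial protein genes did not. The median level of the 74 nuclear subunits was 43.0 FPKM in high sugar sperm against 162 FPKM in embryos of high sugar males, and 47.6 against 151 FPKM at medium sugar. The median ratio of sperm over embryos was 0.271 over 72 nuclear subunits at high sugar and 0.306 over 73 at medium sugar, and 5 and 8 of these had higher values in sperm. For mitochondrial protein genes 8 of 12 at high sugar and 11 of 12 at medium sugar had higher values in sperm, with the medians of 1.15 and 1.29 given above. Over all nuclear genes above 0 in both tissues and with a mean of at least 1 FPKM the median ratio was 0.658 at high sugar and 0.672 at medium sugar. The median mitochondrial protein gene stood 34.8 and 29.1 times above the median nuclear subunit in high and medium sugar sperm, and 8.72 and 9.08 times above it in embryos of high and medium sugar males. The ATP synthase pair shows the nuclear pattern: CG1746 had 263 FPKM in high sugar sperm against 1304 FPKM in the embryos, and ATPsyn-beta had 234 against 1269.7 FPKM. By median, complex II, which has no mitochondrial gene, was the exception among the complexes, with a median ratio over its 4 genes of 1.06 at high sugar and 1.43 at medium sugar. Of these 4 genes, 2 had higher values in sperm at high sugar and 3 at medium sugar. At high sugar complexes I, IV and V each had 1 nuclear gene higher in sperm, that of complex I being ND75 with a ratio of 1.30.

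**Figure D4:**
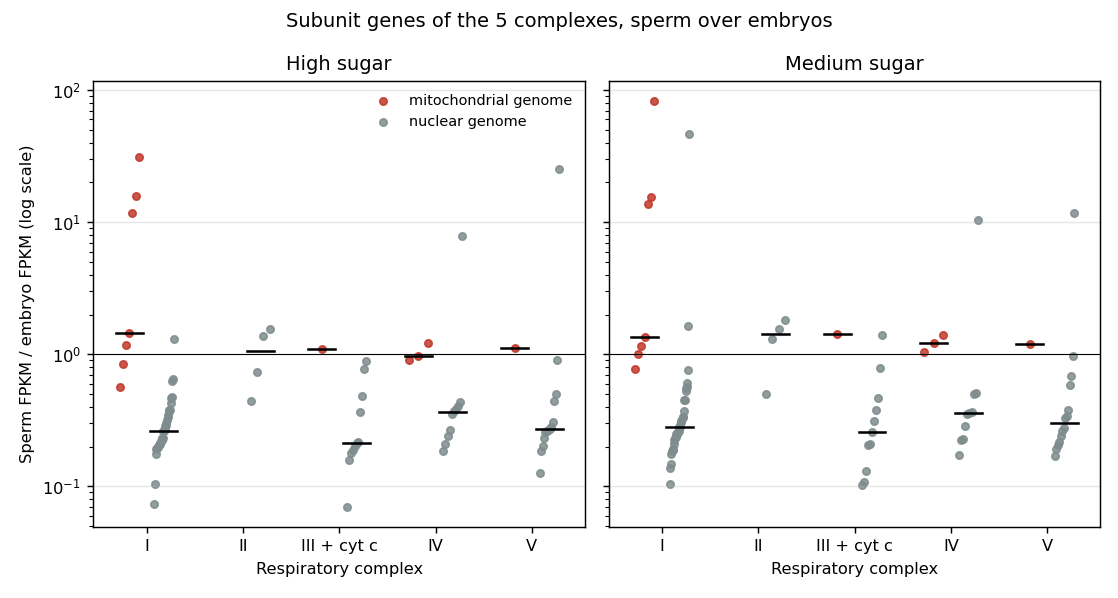
Ratio of sperm over embryo FPKM (log scale) for subunit genes of each respiratory complex encoded by the mitochondrial genome (left points of each pair) or the nuclear genome (right points), at high and medium sugar, with black bars at medians. Nuclear subunits of complexes I, III, IV and V have medians between 0.214 and 0.362, while the medians of the mitochondrial genes run from 0.963 to 1.44.

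The machinery that copies and expresses the mitochondrial genome was low in sperm. Of 19 listed genes found in the tables, the authors tested 5 in sperm and all 19 in embryos, and 0 were called in the authors' deposited table, where 0.341% of all tested genes in sperm and 0.807% in embryos were called. The mitochondrial RNA polymerase gene mtRNApol had 2.44 and 1.64 FPKM in high and medium sugar sperm, and 8.34 and 7.55 FPKM in embryos of high and medium sugar males. TFAM, which packages and bends the DNA for transcription, had 6.96 and 4.42 FPKM in high and medium sugar sperm, and 19.8 and 20.9 FPKM in the embryos. mtSSB, the single-strand binding protein of mitochondrial DNA replication, was listed at 0 in high sugar sperm with 1.63 FPKM in medium sugar sperm, and had 46.6 and 51.8 FPKM in embryos of high and medium sugar males. EndoG, a mitochondrial nuclease that takes part in removing the DNA from fly sperm mitochondria, had 3.77 and 1.87 FPKM in high and medium sugar sperm and 13.99 and 17.1 FPKM in the embryos. At each diet all 18 of these genes that were above 0 in both tissues were lower in sperm, with a median ratio of sperm over embryos of 0.303 at high sugar and 0.229 at medium sugar. The mitochondrial ribosomal proteins stood lower still, with medians of 0.124 over 69 genes at high sugar and 0.141 over 71 at medium sugar.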

How the data were processed

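Per the labels' protocols, libraries were made with a stranded kit from Trizol-extracted total RNA after removal of rRNA. The submitters' processing notes name the BDGP5 build, TopHat2 2.0.8 and Cuffdiff 2.1.1, while the sources used here give neither the annotation nor the tool options nor how groups were scaled. The deposited expression values are FPKM, 1 per gene and group, per the file headers, so both libraries of each group were combined before deposit. The p-value and adjusted p-value are deposited results of the authors' own test. No deposited column holds values of single libraries, so 0 such columns were left unused.

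Both tables were read with Python 3.11.15 and pandas 2.3.3. Ratios are high over medium sugar, or sperm over embryos, from FPKM. List medians use log2(FPKM + 0.1) over members whose mean reached 1 FPKM. The median routine and the Benjamini-Hochberg routine were tested on simulated data. Locus starts in the tables count from 0, and 1 was added: 22 of the 27 mitochondrial genes with a locus of their own then have the length of the newer BDGP6 annotation. That annotation gave strands, gene lengths and gene order only. All 74 nuclear subunits were found by gene identifier or name, and 19 of 21 genes of the expression machinery. The members and lists were chosen with earlier results of these data known. Every mitochondrial protein and rRNA gene is named, the tRNAs above 0, and a few of the most abundant or best known genes of each nuclear list; ND75, mtRNApol, mtSSB and EndoG were named after their values were seen. Low FPKM values showed no clear steps that would give the depth, so intervals and floors for counting error cannot be given. Alternatives were other thresholds and pseudocounts, other filters on low values, centring and other sums.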

Additional observations from a re-analysis of the deposited data

How the results depend on the processing

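No mitochondrial gene was called in sperm or in embryos at an adjusted p under 0.1. The same held when the adjustment was recomputed over tested genes, where the smallest adjusted p was 0.997 in sperm and 0.237 in embryos. At an adjusted p under 0.01, or with a minimum absolute log2 ratio of 1, the count was also 0. That outcome was fixed in advance, since no mitochondrial gene was called at 0.05. The median log2 ratio of mitochondrial protein genes kept its sign and moved by under 0.1 under every pseudocount, filter and centring tried, including members above 0 in both groups, which was chosen after seeing the data, although centring brought the sperm median to -0.02. The share of summed FPKM in mitochondrial protein genes depended on the sum: without CG18628 it was 7.58% in high sugar and 8.49% in medium sugar sperm, and without rRNA, tRNA and small RNA genes it was 6.92% and 7.33% in high and medium sugar sperm and 7.67% and 7.02% in embryos of high and medium sugar males, since these genes hold much of the sum. Of 40 alternatives in all, 28 left the count as it was or moved the value by under 0.1 on the log2 scale or under 1 percentage point, 12 moved it further and 0 reversed it, and the further moves were those shares and the medians of the few tRNA genes. The 28 include the stricter cuts whose outcome was fixed in advance. Counts and shares have no sign to reverse, so only the medians could. The order of the tissues at high sugar and the split of the sperm genes, which did change, were not among the 40. No paired analysis was possible because the tables hold 1 value per group, and for the same reason no library could be left out. FPKM without depth gives no error for single values, and the number of fragments behind the high values of genes under 100 bases is unknown.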

Other observations

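Some nuclear subunits have second copies known for expression in testis, and 4 are given here, chosen after their values were seen. COX7AL, COX4L and ATPsynbetaL had higher values in sperm than in embryos, and the testis cytochrome c Cyt-c-d had lower ones. COX7AL (CG18193), of complex IV, had 39.7 FPKM in high sugar sperm and 12.7 FPKM in medium sugar sperm and was listed at 0 in both embryo groups. COX4L (CG10396) had 13.8 FPKM in high sugar sperm against 1.74 FPKM in embryos of high sugar males, and 9.02 against 0.874 FPKM at medium sugar. ATPsynbetaL (CG5389) stayed under 0.5 FPKM in all 4 groups. Cyt-c-d had 37.3 FPKM in high sugar sperm against 184 FPKM in embryos of high sugar males, and 17.4 against 170.1 FPKM at medium sugar. It shares its locus in the tables with Cyt-c-p, the other cytochrome c gene, so the split of fragments between them is uncertain. Between diets the unadjusted p of COX7AL in sperm was 0.088 in the authors' deposited table, and none of these was called.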
